A study of Mus musculus with 6 samples.

Results

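Control cells of the embryonic mouse stomach were compared with control cells of the embryonic mouse intestine, on 4 of the 6 Affymetrix arrays of the study, 2 per organ. The arrays were chosen by their labels alone. Each of 12393 genes was read by 1 probe set, the one with the highest mean over the 6 arrays, on a log2 scale on which a difference of 1 is a doubling. Embryos of strain C57BL/6 were taken at embryonic day 13.5, their stomachs or intestines were treated with collagenase-dispase and then trypsin to deplete the endoderm, and the cells were grown for 3 days in DMEM with 20% fetal bovine serum. Both control groups have the genotype label Rosa26+/Barx1 or Bapx1+/Cre (WT), so they carried a Barx1 allele at Rosa26 or a Cre allele at Bapx1, but not both together. The labels do not say which of these alleles stood behind which array, nor how many embryos gave each culture. The remaining group, intestine cells with Rosa26+/Barx1;Bapx1+/Cre, in which both alleles meet, entered the model for its spread between replicates and is not described here. The arrays of a group are labelled as biological replicates, and their number limits the precision of every value.

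The wall of the gut tube is built by mesenchyme, which gives rise to smooth muscle, fibroblasts and connective tissue, and which instructs the epithelium that lines the tube. Mesenchyme along the tube carries regional transcription factors, among them BARX1 in the stomach, NKX2-3 in the intestine and HOX proteins in nested domains. Stomach mesenchyme with BARX1 is known to restrain Wnt signals that favour an intestinal lining, and its posterior border, the pylorus, forms a sphincter.

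The label of each group was first checked against defining markers. Barx1, the homeobox gene of stomach mesenchyme, stood at 9.82 and 9.79 on the stomach arrays and 5.13 and 4.93 on the intestine arrays. Nkx2-3, the homeobox gene of intestine mesenchyme, read 7.97 and 7.79 in stomach, against 10.30 and 10.09 in intestine. Nkx3-2, also called Bapx1, read 4.93 and 5.10 in stomach, against 4.70 and 4.81 in intestine, and did not pass the test (difference 0.26, SE 0.12, adjusted p = 0.198). The smooth muscle actin gene Acta2 and the actin-binding gene Tagln were near the top of the scale on all 4 arrays (14.55 to 14.61 and 14.21 to 14.25). The gastric epithelium list, with genes such as Tff1 and Atp4b, averaged 4.97, 5.05, 4.99 and 4.94 on the 2 stomach and the 2 intestine arrays, and 0 of its 22 measured members passed the test. Smooth muscle transcripts were thus abundant in both cultures, and markers of a differentiated gastric lining lay near the lower end of the scale in both.

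Of the 12393 genes, 2100 passed at an adjusted p under 0.05 (limma, Benjamini-Hochberg adjustment over all genes), which is 16.9%. These calls are 1098 genes higher in stomach (8.86%) and 1002 lower (8.09%), and the median difference over all genes was 0.02. Counts of called members in the lists below are to be read against these shares, and several lists lie near them. Later counts from fits without 1 array cannot be read against them, because each such fit called fewer genes in both directions. Most calls are small. The difference was under 0.5 for 1138 called genes, and 110 genes were higher (0.888%) and 166 lower (1.34%) by 1 or more. The arrays of the 2 organs did not overlap for 64.1% of all genes (stomach above for 34.5%, intestine above for 29.6%), so a gap between the groups is common here and says little by itself. With the genes split into 4 equal groups by mean level, 4.36%, 17.1%, 24.1% and 22.2% were called, from the dimmest group to the brightest. Levels at or below 4.74, the lower quartile of the 4 arrays, may be background, so differences measured from them are given as lower bounds. Replicate arrays differed from one another with an SD over genes of 0.149 (stomach) and 0.232 (intestine), and arrays of different organs with one of 0.404 to 0.421.

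The calls depend on the stomach arrays more than on the others. Without stomach replicate 1 the model called 388 genes and without stomach replicate 2 it called 281, against 1223 without intestine replicate 1 and 1401 without intestine replicate 2. Each of the 6 arrays was left out in turn, and 252 of the 2100 genes were called in all 6 of these reduced fits. Among genes that differed by 1 or more, 69 of the 110 higher and 68 of the 166 lower ones were. A gene named below as higher or lower kept its call in all 6 reduced fits unless its paragraph gives the adjusted p without the array at which the call was lost. The 73 gene lists used below had fewer called members without stomach replicate 1 in 70 cases and without stomach replicate 2 in 71 cases.

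**Figure D1:**
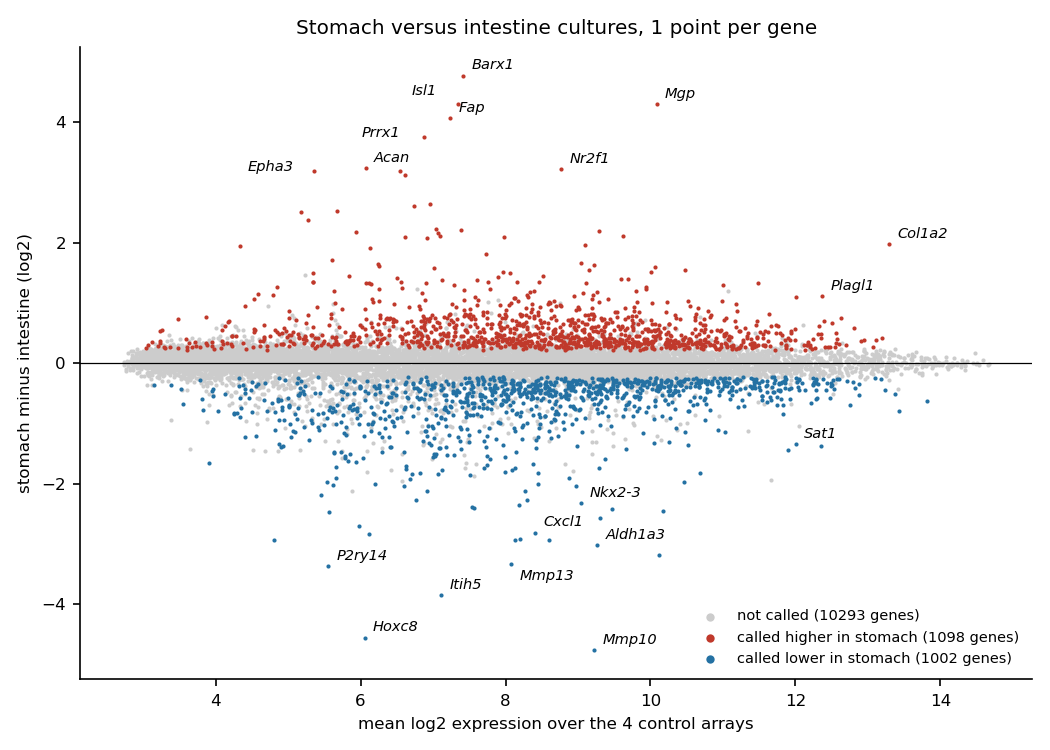
Each point is 1 of 12393 genes, with its mean log2 expression over the 4 control arrays on the horizontal axis and the stomach minus intestine difference (log2) on the vertical axis. Red points were called higher in stomach (1098 genes), blue points lower (1002 genes) and grey points were not called. Barx1 at 4.78 and Mmp10 at -4.76 are the outermost points, and most called genes lie within 1 of zero.

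Several transcription factor genes were among the widest differences. Of 346 measured members of the transcription factor lists, 57 were higher in stomach and 32 lower. Barx1 (chromosome 13) was 27.4-fold higher in stomach (log2 difference 4.78, SE 0.09, adjusted p = 0.000114). Isl1, a LIM-homeodomain gene on the same chromosome that marks pyloric mesenchyme, read 9.56 and 9.43 in stomach against 5.31 and 5.06 in intestine (difference 4.31, SE 0.10, adjusted p = 0.000114). Prrx1, a homeobox gene of limb and head mesenchyme, read 8.68 and 8.82 against 4.73 and 5.27 (difference 3.76, SE 0.19, adjusted p = 0.0011). For each of these genes the stomach arrays lay within 0.2 of one another and more than 3 units above both intestine arrays.

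The homeobox genes outside the Hox clusters moved mostly towards the stomach: 15 of 67 measured members were higher and 5 lower, with a median difference of 0.13. Without stomach replicate 1 or 2 the model still called 8 of them higher, and without intestine replicate 1 or 2 it called 13 and 14. Six2, which marks the pyloric border, read 8.04 and 7.86 in stomach against 5.79 and 5.94 in intestine (difference 2.09, SE 0.09, adjusted p = 0.000891). Pitx1, better known from the hindlimb, differed by 3.13, the chromatin organiser gene Satb1 by 1.43, the spleen gene Tlx1 by 1.35, a lower bound, and the HOX cofactor gene Meis1 by 1.13. Its relative Meis2 was higher by 0.79, with adjusted p = 0.0665 without stomach replicate 1 and 0.0792 without stomach replicate 2. Nkx2-5, a cardiac and pyloric gene, was higher by 1.02, with adjusted p = 0.109 without stomach replicate 1, 0.0931 without stomach replicate 2 and 0.0621 without intestine replicate 2. On the intestine side stood Nkx2-3 (difference -2.31, SE 0.17, adjusted p = 0.00309) and Zfhx4 (-0.65). Hhex, a homeobox gene of endoderm and vessels, was lower by -0.92, with adjusted p = 0.0563 without stomach replicate 2. Hlx, which gut mesenchyme needs for growth, was lower by -0.78, but its adjusted p was 0.104, 0.125 and 0.0674 without stomach replicate 1, stomach replicate 2 and intestine replicate 1.

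The Hoxa and Hoxc clusters leaned in opposite directions, with 3 members called in each. Hoxc8 read 3.89 and 3.66 in stomach, below the lower quartile of the arrays, against 8.52 and 8.14 in intestine (difference -4.55, SE 0.17, adjusted p = 0.00056), so that 23.4-fold is a lower bound. The other measured genes of the cluster on chromosome 15 also had values below 0, of smaller size: Hoxc9 and Hoxc4 were lower by -0.52 and -0.51, while Hoxc6 (-0.09), Hoxc5 (-0.27) and Hoxc13 (-0.13) were not called. In the cluster on chromosome 6 the direction was the opposite one, with Hoxa2 higher by 0.67, Hoxa7 higher in stomach by 0.79 (SE 0.08, adjusted p = 0.00492) and Hoxa9 higher by 1.65 (7.08 and 7.05 against 5.73 and 5.10). Of its uncalled members, Hoxa4 differed by 0.66, Hoxa13 by 0.33, Hoxa3 by 0.25, Hoxa5 by 0.14, Hoxa11 by 0.08 and Hoxa10 by -0.07. Of these, Hoxa13, Hoxa11 and Hoxa10 had means below 4.74 in both organs, where a change might not be seen. Hoxc5 was also dim, with means of 4.47 in stomach and 4.74 in intestine. Another probe set of Hoxa9 differed by 0.39 and was not called (adjusted p = 0.106). Over all measured Hox genes, 1 of 12 members of paralog groups 1 to 5 was higher and 2 were lower, and 3 of 19 members of groups 6 to 13 were higher and 2 lower. The calls of Hoxa9 and Hoxc9 were lost without stomach replicate 1 (adjusted p = 0.0634 and 0.172) and without stomach replicate 2 (0.0678 and 0.133), and that of Hoxc9 also without intestine replicate 1 (0.0665) and without either array of the remaining group (0.066). Hoxa2 lost its call without stomach replicate 1 (0.0976), stomach replicate 2 (0.114) and intestine replicate 1 (0.0714), and Hoxc4 in all 6 reduced fits (from 0.0509 to 0.122).

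Called differences were also found among nuclear receptor, forkhead and T-box genes. Nr2f1, which encodes the orphan receptor COUP-TFI, read 10.29 and 10.46 in stomach against 6.93 and 7.38 in intestine (difference 3.22, SE 0.15, adjusted p = 0.0011). Its paralog Nr2f2 was higher by 0.94 (SE 0.06, adjusted p = 0.00194), at a level of 9.28 and 9.32 even in intestine. Of 42 measured nuclear receptors and cofactors 6 were higher and 2 lower. Foxp1 was higher in stomach by 0.92, while Foxf2, a target of Hedgehog signals in gut mesenchyme, read 6.28 and 6.51 in stomach against 7.88 and 7.72 in intestine (difference -1.40, SE 0.10, adjusted p = 0.00261). Tbx3 (-1.68) and its paralog Tbx2 (-0.76) were both lower in stomach, and no T-box gene of the 12 measured was higher. Another probe set of Tbx3 differed by 0.34 and was not called (adjusted p = 0.0783). Of 28 forkhead genes 6 were higher and 2 lower. Id4, an inhibitor of basic helix-loop-helix factors, was lower by -1.11, whereas Id1, Id2 and Id3 were not called (differences -0.22, -0.09 and -0.10). In the basic helix-loop-helix list 5 of 50 members were higher (10.0%) and 3 lower (6.0%), near the 8.86% and 8.09% of all genes. In the Sox list 1 of 18 was higher and 2 were lower.

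Zinc finger regulators resembled the homeobox list, with 12 of 45 higher, 3 lower and a median difference of 0.09. The count of higher members was 3 without stomach replicate 1, 3 without stomach replicate 2, 9 without intestine replicate 1 and 10 without intestine replicate 2. Plagl1, an imprinted growth regulator, read 12.90 and 12.94 in stomach against 11.79 and 11.83 in intestine (difference 1.11, SE 0.06, adjusted p = 0.00126). Osr1, a gene of foregut and kidney mesenchyme, was higher by 1.14 and Klf9 by 0.96. Gata6 was higher by 0.86, with adjusted p = 0.0638 without stomach replicate 1 and 0.0794 without stomach replicate 2. The mesothelial gene Wt1 was higher by 1.33, but without any 1 of the 4 arrays its call was lost (adjusted p from 0.0527 to 0.121). Among regulators of muscle genes, Myocd, the coactivator of smooth muscle transcription, was higher by 0.90 (7.33 and 7.19 against 6.36 and 6.37, SE 0.07, adjusted p = 0.00359), and Vgll4, a brake on the Hippo pathway's TEAD factors, was lower by -0.79. That list held 7 higher and 6 lower genes of 34, and the immediate early genes 2 and 3 of 24.

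**Figure D2:**
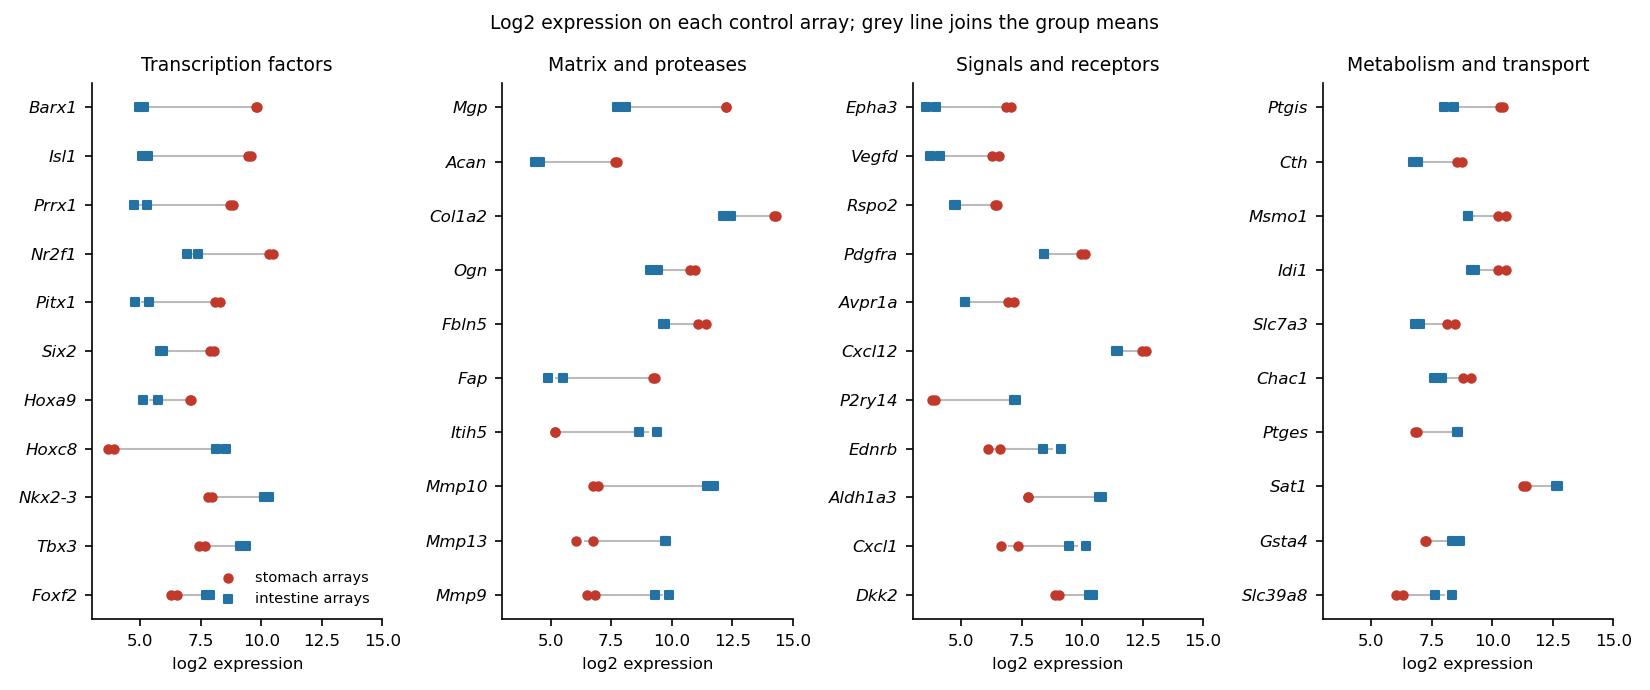
Log2 expression (horizontal axis) of leading genes in 4 functional groups on each control array, with red circles for the 2 stomach arrays, blue squares for the 2 intestine arrays and a grey line between the group means. In every row the stomach and intestine arrays are separated, from Barx1 at 9.82 and 9.79 against 5.13 and 4.93 to Mmp10 at 6.94 and 6.74 against 11.46 and 11.76.

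The extracellular matrix was the next large block. Of 288 measured members of the matrix lists 57 were higher in stomach and 32 lower, and the split ran by class of molecule. Proteoglycans and mineralisation inhibitors were higher in 15 of 36 cases and lower in 1 (median 0.34), elastic fibre genes in 8 of 19 and 1 (median 0.34), and fibrillar and associated collagens in 7 of 20 and 0 (median 0.40). With stomach replicate 1, stomach replicate 2, intestine replicate 1 or intestine replicate 2 left out, the higher members numbered 7, 5, 10 and 11 for proteoglycans, 5, 3, 5 and 5 for elastic fibre genes, and 2, 1, 4 and 6 for collagens. Genes higher in stomach made up 1.82%, 1.15%, 4.76% and 5.30% of all genes tested in the same 4 fits.

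Mgp, which keeps soft tissue from calcifying, read 12.24 on both stomach arrays and 7.74 and 8.12 on the intestine arrays (difference 4.31, SE 0.26, adjusted p = 0.00192). Acan, the large aggregating proteoglycan of cartilage, read 7.65 and 7.73 in stomach against 4.33 and 4.57 in intestine (difference 3.24, SE 0.15, adjusted p = 0.00107); the intestine level was not shown to be above background. Esm1, a secreted dermatan sulphate proteoglycan, differed by 2.65 and the small leucine-rich proteoglycan gene Bgn by 0.76. Aspn and Ogn, of the same leucine-rich family, were higher by 2.09 and 1.61, with adjusted p of 0.0599 and 0.0626 without stomach replicate 2. Dcn, their best-known relative, read 9.03 and 9.69 in stomach against 10.09 and 9.91 in intestine and was not called (adjusted p = 0.208). The class therefore did not move as one. Of the cartilage markers Col2a1 and Sox9, Col2a1 read 5.42 and 5.40 against 4.92 and 5.08, and Sox9, which was not called, 6.80 and 6.58 against 6.96 and 6.76 (adjusted p = 0.379). The call of Col2a1 (difference 0.41) was lost without stomach replicate 1, stomach replicate 2 or intestine replicate 1 (adjusted p = 0.114, 0.107 and 0.0539).

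The fibrillar collagens showed a wide range. Col1a2 read 14.23 and 14.32 in stomach against 12.13 and 12.47 in intestine (difference 1.98, SE 0.15, adjusted p = 0.00326). Its partner in type I collagen, Col1a1, differed by 0.72, with adjusted p = 0.0669 and 0.0786 without stomach replicate 1 and 2. Col5a2 read 13.64 and 13.75 against 13.57 and 13.58 and was not called (adjusted p = 0.389). The crosslinking enzyme gene Loxl1 was higher by 1.04 and the elastic fibre genes Fbln5 and Mfap4 by 1.55 and 1.62. Elastin itself, Eln, was higher by 0.74, but its call did not hold in any of the 6 reduced fits (adjusted p from 0.0581 to 0.17). The type IV collagens of basement membranes lay the other way, with Col4a1 at -0.45 and Col4a2 at -0.61. Both lost their calls without stomach replicate 1 (adjusted p = 0.14 and 0.101), stomach replicate 2 (0.118 and 0.114) and intestine replicate 2 (0.0849 and 0.0657), and Col4a1 also without intestine replicate 1 (0.0531). Of the non-fibrillar collagens 2 of 14 were higher and 2 lower, of laminins and other basement membrane genes 1 of 21 and 2, and of collagen processing enzymes 5 of 22 and 1.

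Matricellular proteins, which sit in the matrix and signal to cells, split evenly, with 6 of 35 higher and 5 lower. Ccn3 was higher by 2.23 (8.01 and 8.29 against 5.88 and 5.96, SE 0.11, adjusted p = 0.0011) and Thbs3 by 1.39. Its family members Ccn1 and Ccn2 were not called (differences -0.16 and -0.00), at levels above 12.9 on every array. Among enzymes of glycosaminoglycan synthesis (8 of 39 higher, 4 lower) the sulphotransferase gene Chst1 was higher by 1.06, while Hs3st1, which makes the heparan sulphate motif bound by antithrombin, was lower by -2.04 (5.58 and 5.56 against 7.55 and 7.68, SE 0.08, adjusted p = 0.00056). Itih5, a hyaluronan-binding inhibitor, read 5.18 and 5.196 in stomach against 8.66 and 9.40 in intestine (difference -3.84, SE 0.32, adjusted p = 0.00375).

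Large protease differences lay on both sides. Of the ADAM, ADAMTS, cathepsin and related proteases 5 of 44 were higher in stomach and 7 lower. Fap, the fibroblast activation protease, was on the stomach side, at 9.22 and 9.32 in stomach against 4.90 and 5.50 in intestine (difference 4.07, SE 0.20, adjusted p = 0.0011). Mmp10, stromelysin-2, read 6.94 and 6.74 in stomach against 11.46 and 11.76 in intestine (difference -4.76, SE 0.13, adjusted p = 0.000238). Mmp13, a collagenase, read 6.76 and 6.06 against 9.72 and 9.75 (difference -3.33, SE 0.23, adjusted p = 0.00261), and the gelatinase gene Mmp9 differed by -2.94, with adjusted p = 0.0638 without stomach replicate 2. Mmp2 and Mmp14, the gelatinase and the membrane protease of most fibroblasts, were not called (differences -0.15 and 0.34). In all, 4 of 17 metalloproteinases were lower and 1 was higher. Without stomach replicate 1, stomach replicate 2, intestine replicate 1 and intestine replicate 2 the lower ones numbered 3, 2, 3 and 3. Mmp10 and Mmp13 lie in one block of metalloproteinase genes on chromosome 9, and the genes between them, Mmp12, Mmp1b, Mmp3 and Mmp1a, were not called (differences -0.27, -0.15, -0.07 and 0.17). Of these, Mmp1b, Mmp3 and Mmp1a had means below 4.74 in both organs, where a change might not be seen. Leukocytes also make metalloproteinases, and the leukocyte markers averaged 7.93 and 7.67 in stomach against 8.26 and 9.09 in intestine; their part in these differences was not tested. Of the protease inhibitors 2 of 29 were higher and 6 lower, among them Serpinf1 (1.01) and Serpinb9 (-1.26).

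Promoter letters of Mmp10 and Mmp13 are shown because both genes were lower in stomach by over 3 units. The sequences are from RefSeq (GRCm38.p6, gene strand, plus), at chr9:7502267-7502330 for Mmp10 and chr9:7272467-7272513 for Mmp13, upstream of the annotated start. Capitals mark the AP-1 motif TGANTCA and the TATA box TATAAA, searched on both strands.
Mmp10: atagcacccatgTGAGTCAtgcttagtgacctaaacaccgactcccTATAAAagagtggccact
Mmp13: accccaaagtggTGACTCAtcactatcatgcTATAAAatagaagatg
AP-1 is the dimer of FOS and JUN proteins that responds to growth factors and inflammation. Windows of 300 bases, from 250 before to 50 after a start, were given for 9887 of the tested genes, and 6.45% of the 12566 windows held TGANTCA while 9.81% held TATAAA. Of 15 windows of metalloproteinase genes 46.7% held TGANTCA and 53.3% TATAAA. Of the 161 windows of genes lower in stomach by 1 or more, 13.04% held TGANTCA and 19.3% TATAAA, and of the 103 windows of genes higher by 1 or more, 5.83% and 11.7% did. These are matches of letters and do not show that a factor was bound.

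Of 52 adhesion molecules 12 were higher in stomach (23.1%) and 5 lower (9.62%), against 8.86% and 8.09% of all genes. Their median difference was 0.02 and changed sign with 1 array left out (from -0.03 to 0.06). The gap junction gene Gjb2 read 6.997 and 6.89 in stomach against 4.24 and 4.59 in intestine (difference 2.52, SE 0.17, adjusted p = 0.00235), from an intestine level not shown to be above background. The fibroblast surface gene Thy1 was higher by 1.52 and the mesenchymal cadherin gene Cdh11 by 0.62, while the tight junction gene Cldn1 was lower by -1.28. Another probe set of Cldn1 was also called lower (-0.84), and others, at -0.20 and 0.07, were not called. Of 19 integrins and related receptors 2 were higher and 0 lower, and Itgb1 and Itgav were not called (differences 0.04 and -0.07).

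The signalling lists held 529 measured genes, of which 58 were higher in stomach and 70 lower. In every pathway list but that of Wnt target genes, members were called on both sides. In the Wnt pathway, whose secreted ligands pattern the gut, Rspo2, an enhancer of Wnt reception, read 6.41 and 6.503 in stomach against 4.78 and 4.70 in intestine (difference 1.71, SE 0.07, adjusted p = 0.00056). Dkk2, a secreted Wnt antagonist, read 8.87 and 9.03 against 10.28 and 10.46 (difference -1.42, SE 0.10, adjusted p = 0.00261). The antagonist genes Sfrp2 and Frzb were higher by 1.35 and 0.87, both lower bounds, so that the antagonists split, with 2 of 16 higher and 3 lower. The call of Sfrp2 was lost without stomach replicate 1 (adjusted p = 0.0521) and stomach replicate 2 (0.0897), and that of Frzb without stomach replicate 2 (0.0595). Sfrp1, which stomach mesenchyme is known to secrete, read 8.88 and 8.92 against 8.78 and 8.75 and was not called (adjusted p = 0.674). The ligand gene Wnt5a was lower by -0.72, with adjusted p = 0.0998 and 0.0969 without stomach replicate 1 and 2. Of 39 Wnt ligands and receptors 5 were higher and 3 lower, and of 16 Wnt target genes 2 and 0.

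In the BMP pathway (5 of 43 higher, 4 lower) the antagonist gene Fst, follistatin, was higher in stomach by 1.01 (10.84 and 10.64 against 9.69 and 9.75, SE 0.08, adjusted p = 0.0037). The inhibitory Smad gene Smad7 was lower by -0.62, with adjusted p = 0.0576 without stomach replicate 2. TGF-beta and activin genes were higher in 2 of 29 cases and lower in 3. For Hedgehog signals, which the gut epithelium sends to mesenchyme, the coreceptor gene Gas1 was higher by 1.33 (12.02 and 12.26 against 10.68 and 10.95, adjusted p = 0.00754, and 0.0602 without stomach replicate 2). The receptor and target gene Ptch1 read 9.19 and 9.28 against 9.50 and 9.39 and was not called (adjusted p = 0.163), and 2 of the 17 Hedgehog genes were higher and 1 lower. FGF pathway genes were higher in 3 of 37 cases (8.11%) and lower in 4 (10.8%), and Notch pathway genes in 3 of 30 (10.0%) and 4 (13.3%). Shares over all genes were 8.86% and 8.09%, near those of the FGF list and of the BMP list (11.6% and 9.30%).

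Among the retinoic acid genes, the widest differences were those of Aldh1a3, Aldh1a1 and Aldh1a7, each lower in stomach. Retinoic acid is made from vitamin A by retinaldehyde dehydrogenases and sets positions along the body axis. Aldh1a3 read 7.76 and 7.75 in stomach against 10.72 and 10.82 in intestine (difference -3.02, SE 0.10, adjusted p = 0.000418). Aldh1a1 read 5.60 and 5.85 against 7.53 and 7.74 (difference -1.91, SE 0.11, adjusted p = 0.00173), and Aldh1a7 differed by -1.77. The corepressor gene Nrip1, which retinoic acid is known to induce, was lower by -0.75. Of the 29 measured genes 5 were lower and 2, Meis1 and Meis2, were higher. The call of Meis2 (difference 0.79) was lost without stomach replicate 1 or 2 (adjusted p = 0.0665 and 0.0792).

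Growth factor receptors of mesenchyme and vessels also divided. Pdgfra, the PDGF receptor that marks gut fibroblasts, read 9.95 and 10.13 in stomach and 8.41 on both intestine arrays (difference 1.63, SE 0.14, adjusted p = 0.00426), while its paralog Pdgfrb was not called (11.40 and 11.48 against 11.52 and 11.38, adjusted p = 0.977). The lymphatic growth factor gene Vegfd was higher by at least 2.52, from an intestine level of 3.70 and 4.13, with adjusted p = 0.0553 without stomach replicate 2. Kdr, the main endothelial VEGF receptor, was lower by -1.59 (7.09 and 6.89 against 8.68 and 8.48), with adjusted p = 0.0508 without stomach replicate 2. That list held 9 higher and 6 lower genes of 34. In the insulin-like growth factor list (5 of 24 higher, 3 lower) Pappa, a protease that frees the factor from its binding proteins, was higher by 1.31, and the binding protein gene Igfbp5 read 7.18 and 7.14 in stomach against 8.92 and 9.95 in intestine. Another probe set of Igfbp5 differed by 0.05 and was not called. The difference of -2.27 for Igfbp5 lost its call without stomach replicate 1 (adjusted p = 0.128), stomach replicate 2 (0.134) and intestine replicate 2 (0.0754).

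Guidance and neural crest signals were among the larger differences. Epha3, an ephrin receptor, read 6.84 and 7.05 in stomach against 3.56 and 3.96 in intestine (difference 3.19, SE 0.22, adjusted p = 0.00261), a lower bound. Epha4 lay the other way (-1.25, with adjusted p = 0.0553 without stomach replicate 2), and the list held 2 higher and 2 lower genes of 19. The repellent gene Slit2 was higher by 1.24, in a list of semaphorins, netrins and slits with 6 of 40 higher and 5 lower. Edn1, endothelin 1, was lower in stomach by -0.95. Ednrb, the endothelin receptor of enteric neural crest, read 6.60 and 6.12 in stomach against 8.37 and 9.15 in intestine (difference -2.40, adjusted p = 0.0133), and without stomach replicate 1 or 2 its adjusted p was 0.0624 and 0.0926. Erbb3, the neuregulin receptor of glia, was lower by -1.74 (SE 0.16, adjusted p = 0.00426), while another probe set of it differed by 0.06 and was not called. The neurotrophic list had 3 of 23 higher and 4 lower, and the EGF and neuregulin list 1 of 15 and 3.

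Inflammatory signals were read mostly on the intestine side. Of 48 interleukins, TNF family members and receptors 4 were higher in stomach and 11 lower (median -0.12), and the lower ones numbered 4, 3, 6 and 5 without stomach replicate 1, stomach replicate 2, intestine replicate 1 and intestine replicate 2. Cd40, a TNF receptor of antigen-presenting and stromal cells, read 6.06 and 6.45 in stomach against 7.89 and 7.64 in intestine (difference -1.51, SE 0.17, adjusted p = 0.00693). Csf3, the granulocyte growth factor, differed by -1.38 and the death receptor gene Tnfrsf10b by -0.65. Among chemokines, which attract leukocytes (3 of 49 higher, 6 lower), Cxcl1 read 7.35 and 6.66 against 9.46 and 10.16 and Ccl2 9.79 and 9.76 against 11.52 and 11.68. Cxcl12, the homeostatic stromal chemokine, read 12.47 and 12.63 against 11.496 and 11.42. The calls of Cxcl1 (difference -2.81), Ccl2 (-1.83) and Cxcl12 (1.09) were lost without stomach replicate 1 (adjusted p from 0.0716 to 0.0818), stomach replicate 2 (0.0926 to 0.113) and intestine replicate 2 (0.0513 to 0.066). Ccl12, a neighbour of Ccl2, was not called (difference 1.05, adjusted p = 0.236). Of the interferon response genes 1 of 30 was higher and 5 lower. Beside these lists, the leukocyte markers averaged 7.93 and 7.67 in stomach against 8.26 and 9.09 in intestine, the highest on intestine replicate 2, and their part in these results was not tested.

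Receptors for hormones and transmitters, ion channels and their regulators numbered 324 with the integrins and adhesion molecules, with 41 higher and 27 lower. P2ry14, the receptor for UDP-sugars, read 3.82 and 3.92 in stomach against 7.19 and 7.28 in intestine (difference -3.36, SE 0.07, adjusted p = 0.000114), from a stomach level not shown to be above background. Avpr1a, the vasopressin receptor that contracts smooth muscle, read 6.95 and 7.21 in stomach against 5.16 and 5.17 in intestine (difference 1.92, SE 0.09, adjusted p = 0.0011). Over all G protein-coupled receptors 11 of 106 were higher and 5 lower. Downstream of them, the calcium-dependent phosphodiesterase gene Pde1a was higher by 2.11, and Pde9a, specific for cyclic GMP, was lower by -0.998. The regulator gene Rgs16 was lower by -0.87, in a list with 5 of 51 higher and 11 lower. Of 96 ion channels 11 were higher and 6 lower, and the stomach side included the water channel gene Aqp1 (1.27, a lower bound), the serotonin-gated channel gene Htr3a (0.71) and the potassium channel gene Kcnn4 (0.70).

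**Figure D3:**
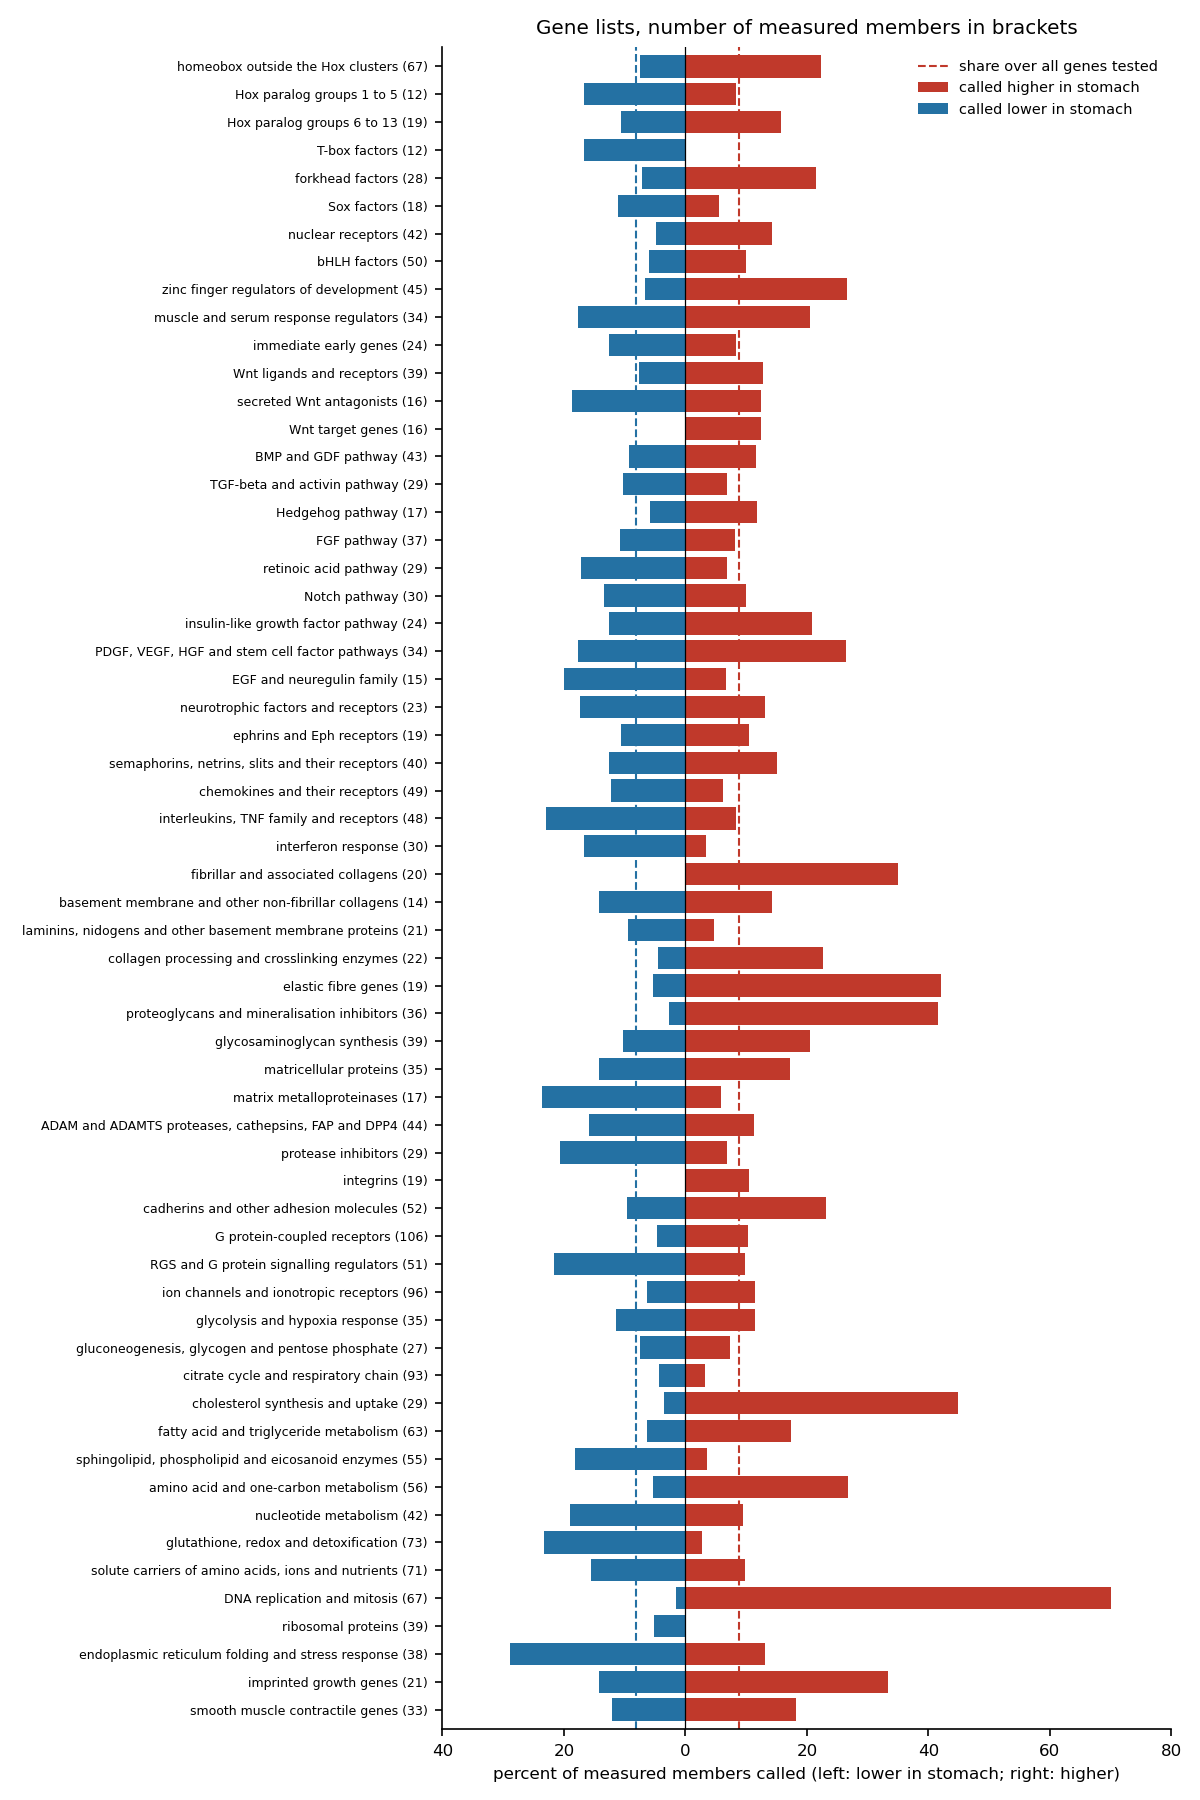
For each of 60 gene lists, bars give the percent of measured members called higher in stomach (red, to the right) or lower (blue, to the left), with the number of measured members in brackets. Dashed lines mark the shares over all genes tested, 8.86% and 8.09%. DNA replication and mitosis, cholesterol synthesis, elastic fibres and proteoglycans reach furthest to the right, and folding in the endoplasmic reticulum reaches furthest to the left.

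Genes of cell division were the list with the largest share of members called in 1 direction. Of 67 measured genes of DNA replication and mitosis 47 were higher in stomach and 1, the G1 cyclin gene Ccne1, was lower, with a median difference of 0.52. The higher genes numbered 22 without stomach replicate 1, 15 without stomach replicate 2, 34 without intestine replicate 1 and 38 without intestine replicate 2. The differences were small. Kif2c, a microtubule depolymerase of the centromere, read 9.96 and 9.93 in stomach against 9.10 and 9.06 in intestine (difference 0.86, SE 0.06, adjusted p = 0.00261). Ccna2, the cyclin of S and G2 phase, read 11.23 and 11.25 against 10.40 and 10.46 (difference 0.81), Cenpf differed by 0.82, Anln by 0.81 and Kif11, the spindle motor, by 0.80. Some genes of DNA replication were included: the helicase gene Mcm7 was higher by 0.40 and the clamp loader gene Rfc4 by 0.52. Both lost their calls without stomach replicate 1 (adjusted p = 0.0786 and 0.0625) and stomach replicate 2 (0.0897 and 0.0826). Others were not: Pcna read 12.72 and 12.80 against 12.89 and 12.90 (adjusted p = 0.177) and Rrm2 12.59 and 12.46 against 12.78 and 12.58 (adjusted p = 0.304). Mcm2, Mcm3, Mcm4, Mcm5 and Mcm6 were not called either (differences 0.07, 0.09, -0.04, 0.18 and 0.09). Ccne1 (difference -0.25) was not called in any of the 6 reduced fits (adjusted p from 0.0684 to 0.207). No value here tells more dividing cells from more transcript per dividing cell, and the same holds for every cell type in these bulk samples: fewer cells and less RNA per cell cannot be told apart.

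Late cell cycle genes are known to carry a CHR element near their start, often beside CCAAT boxes, bound by the DREAM and MuvB complexes and by NF-Y. Upstream of the start, the window of Kif2c held only the CHR element, and those of Cenpf, Plk1 and Bub1 held only CCAAT. Promoter stretches of 3 late cell cycle genes are shown because 47 of the 67 measured genes of the list were higher. They were picked because they hold both motifs upstream of the start. They are from RefSeq (GRCm38.p6), 5′ to 3′ along the gene, for Kif11 (chr19:37376325-37376380, plus strand), Ect2 (chr3:27153917-27154004, minus strand) and Cdc20 (chr4:118437344-118437408, minus strand). Capitals mark TTTGAA (the CHR element) and CCAAT, or TTCAAA and ATTGG where they lie on the other strand.
Kif11: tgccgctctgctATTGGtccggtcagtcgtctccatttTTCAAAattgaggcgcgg
Ect2: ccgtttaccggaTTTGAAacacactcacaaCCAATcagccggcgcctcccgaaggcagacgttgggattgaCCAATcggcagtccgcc
Cdc20: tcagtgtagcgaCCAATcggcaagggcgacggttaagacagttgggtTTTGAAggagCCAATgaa
Of the 62 windows of the list 41.9% held TTTGAA and 64.5% held CCAAT, against 12.9% and 37.1% of the 12566 windows of all genes tested. Among windows of the list's called genes 52.2% of 46 held TTTGAA. Cdc20, an activator of the anaphase-promoting complex, read 12.05 on both stomach arrays and 11.45 and 11.38 in intestine (difference 0.63). Ect2, a cytokinesis gene, was higher by 0.74 and lost its call without stomach replicate 1 (adjusted p = 0.0938), stomach replicate 2 (0.0926) and intestine replicate 1 (0.0507).

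The lists for general growth gave a different picture from that for division. Ribosomal protein genes were lower in 2 of 39 cases and higher in 0, with a median of -0.01. Genes of folding in the endoplasmic reticulum and its stress response were lower in 11 of 38 cases and higher in 5, with a median of -0.20, and the lower ones numbered 3, 3, 6 and 6 without stomach replicate 1, stomach replicate 2, intestine replicate 1 and intestine replicate 2. Sdf2l1, a cochaperone of the reticulum, read 9.18 on both stomach arrays and 9.99 and 10.13 in intestine (difference -0.88, SE 0.07, adjusted p = 0.00397). The cochaperone gene Dnajc3 was lower by -0.61, and Hspb1, a small heat shock gene of the cytosol, by -0.63. The chief chaperones Hspa5 and Hsp90b1 were not called (differences -0.19 and -0.03). Differences in the folding and stress list ran from -0.90 to 1.19, so the widest lay on the stomach side, among the 5 higher genes. Imprinted growth genes were higher in 7 of 21 cases and lower in 3 (median 0.24), with Plagl1 at 1.11 the largest.

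**Figure D4:**
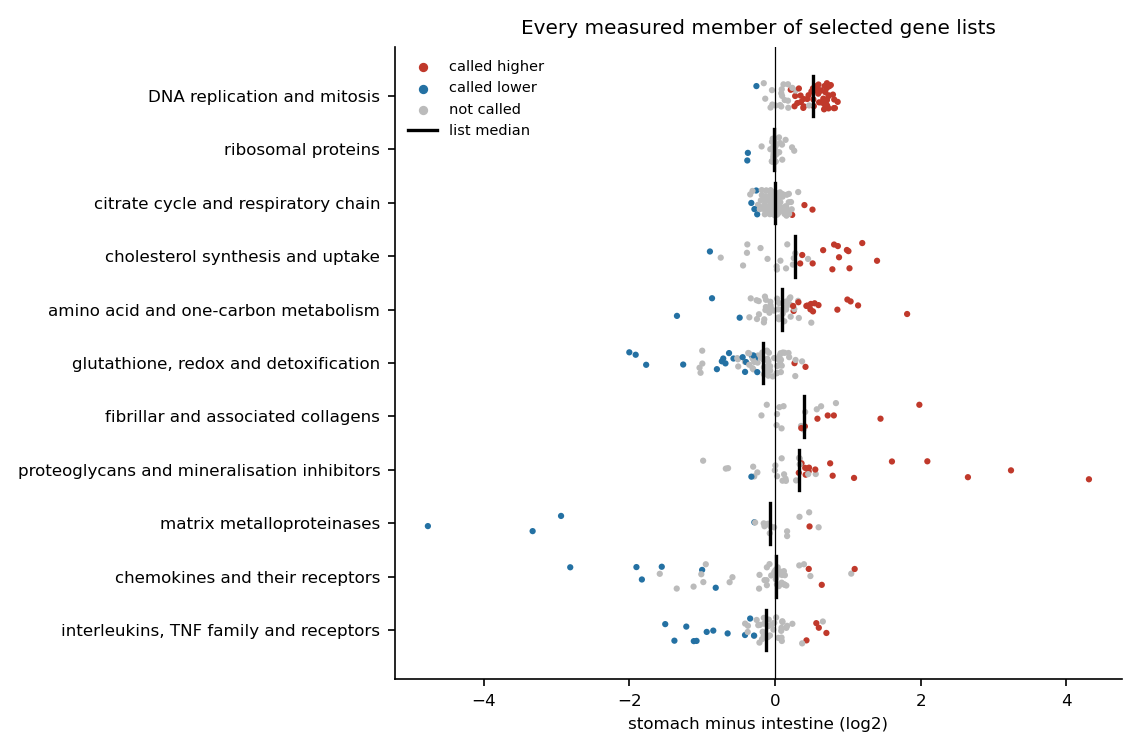
Each point is 1 measured member of a gene list, placed by its stomach minus intestine difference (log2); red and blue points were called higher and lower, grey points were not called, black bars mark the list medians, and vertical scatter within a row carries no value. Division genes run from -0.25 to 0.86 with a median of 0.52, whereas metalloproteinases have a median of -0.07, with 3 genes at -2.94 or below.

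Metabolic lists held 543 measured genes, 63 higher and 64 lower. Cholesterol synthesis and uptake leaned furthest to the stomach, with 13 of 29 members higher and 1 lower (median 0.28). The count of higher members was 8 without stomach replicate 1, 6 without stomach replicate 2, 10 without intestine replicate 1 and 9 without intestine replicate 2. Msmo1, a sterol demethylating oxidase, read 10.24 and 10.54 in stomach against 8.998 and 8.99 in intestine (difference 1.40, SE 0.12, adjusted p = 0.00375). The isoprenoid enzyme gene Idi1 was higher by 1.20, Cyp51 by 1.02, the entry enzyme gene Hmgcs1 by 0.99 and Sqle, the squalene epoxidase, by 0.86. The sterol-sensing activator gene Srebf2 was higher by 0.81 (8.35 and 8.44 against 7.55 and 7.62), while its fatty acid counterpart Srebf1 was not called (difference 0.15, adjusted p = 0.142). The cholesterol exporter gene Abcg1 was the lower one (-0.89, with adjusted p = 0.0673 and 0.0866 without stomach replicate 1 and 2). The window of Hmgcs1 holds the sterol regulatory element TCACNCCAC, to which SREBP proteins bind, and is shown for that reason (RefSeq, GRCm38.p6, chr13:119690202-119690234, plus strand, element in capitals).
Hmgcs1: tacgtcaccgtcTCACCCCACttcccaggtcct
Among the 10 windows of the list's called genes, which cover 9 of those 14 genes, it was the only 1 with that element on either strand. The element was in 3.33% of the 30 windows of the whole list and in 1.22% of all windows of genes tested. A single match is too few to compare shares. CCAAT was in 9 of the 10 windows, in 66.7% of the list's windows and in 37.1% of all windows of genes tested.

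Amino acid and one-carbon genes also leaned to the stomach, with 15 of 56 higher, 3 lower and a median of 0.10. The higher ones numbered 4, 3, 11 and 12 without stomach replicate 1, stomach replicate 2, intestine replicate 1 and intestine replicate 2. Cth, which makes cysteine, read 8.55 and 8.73 in stomach against 6.71 and 6.94 in intestine (difference 1.81, SE 0.12, adjusted p = 0.00217). The proline synthesis gene Aldh18a1 was higher by 1.04, the aminotransferase gene Gpt2 by 0.99 and the mitochondrial gluconeogenic gene Pck2 by 1.19. Asns, asparagine synthetase, was higher by 0.52, and Chac1, which degrades glutathione, by 1.19; both are targets of ATF4 in the amino acid response. The call of Asns was lost without stomach replicate 1 (adjusted p = 0.052) and stomach replicate 2 (0.0625), and that of Chac1 without stomach replicate 2 (0.0658). Sat1, which breaks down polyamines, was lower by -1.34 (11.28 and 11.38 against 12.72 and 12.63, SE 0.08, adjusted p = 0.00192).

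The amino acid response element TGATGNAA is shown for both genes (RefSeq, GRCm38.p6, Asns at chr6:7693213-7693244 on the minus strand and Chac1 at chr2:119351037-119351068 on the plus strand), in capitals and read along the gene, with the Chac1 match on the other strand.
Asns: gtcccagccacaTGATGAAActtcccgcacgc
Chac1: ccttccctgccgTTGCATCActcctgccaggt
Of all windows of genes tested 2.59% held the element. Of the 54 windows of the amino acid and one-carbon list 3.70% did, and of the 21 windows of its called genes 4.76%. Of the 103 windows of genes higher in stomach by 1 or more 6.80% held it, and of the 161 of genes lower by 1 or more 2.48%. The number of matches is small, and a match does not show binding.

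Lists of detoxification, nucleotide and lipid mediator enzymes had more called members on the intestine side. Glutathione, redox and detoxification genes were lower in 17 of 73 cases and higher in 2 (median -0.16), and the lower ones numbered 4, 3, 13 and 12 without stomach replicate 1, stomach replicate 2, intestine replicate 1 and intestine replicate 2. The glutathione transferase gene Gsta4 read 7.26 and 7.22 in stomach against 8.34 and 8.66 in intestine (difference -1.26, SE 0.12, adjusted p = 0.00462). Another 2 of these genes, Aldh1a1 and Aldh1a7, also count among the retinoic acid genes (differences -1.91 and -1.77). Nucleotide metabolism genes were lower in 8 of 42 cases and higher in 4. Of sphingolipid, phospholipid and eicosanoid enzymes 10 of 55 were lower and 2 higher. Within prostaglandin synthesis the terminal enzymes parted: Ptgis, prostacyclin synthase, read 10.34 and 10.45 in stomach against 7.98 and 8.41 in intestine (difference 2.20, SE 0.16, adjusted p = 0.00276), and Ptges, prostaglandin E synthase, 6.88 and 6.79 against 8.60 and 8.54 (difference -1.74, SE 0.07, adjusted p = 0.00065). The shared upstream enzyme gene Ptgs2 was lower by -0.79 and was high in both organs (13.10 and 12.98 against 13.81 and 13.85). The acyl-CoA synthetase gene Acsl6 (-1.47) and the calcium exchanger gene Slc24a3 (-1.46) were also lower.

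Of 93 genes of the citrate cycle and respiratory chain 3 were higher and 4 lower, with a median of -0.00, and no difference in this list was larger than 0.52, that of Idh2. The call of Idh2 was lost without any 1 of the 4 arrays (adjusted p from 0.053 to 0.105). Glycolysis and hypoxia genes were higher in 4 of 35 cases and lower in 4 (11.4% each, against 8.86% and 8.09% of all genes), and Pgk1 and Ldha were not called (differences -0.04 and 0.12). Gluconeogenesis, glycogen and pentose phosphate genes numbered 2 higher and 2 lower of 27, solute carriers 7 and 11 of 71, and fatty acid and triglyceride genes 11 and 4 of 63. Medag, a gene of fat cell formation, read 7.73 and 8.56 in stomach against 4.76 and 5.13 in intestine (difference 3.20, SE 0.29, adjusted p = 0.00428), and the elongase gene Elovl6 was higher by 0.81.

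Smooth muscle contractile genes were called on both sides: 6 of 33 were higher (18.2%) and 4 lower (12.1%), against 8.86% and 8.09% of all genes, with a median of 0.13. Acta2, Tagln and Cald1 were not called (differences 0.05, -0.03 and 0.07), nor was Des (10.29 and 10.32 against 9.70 and 10.11, adjusted p = 0.106). Synpo2, which bundles actin, was lower by -0.89 (SE 0.09, adjusted p = 0.00462). Cnn1, calponin, was higher by 0.34 but was called in none of the 6 reduced fits (adjusted p from 0.0546 to 0.184).

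**Figure D5:**
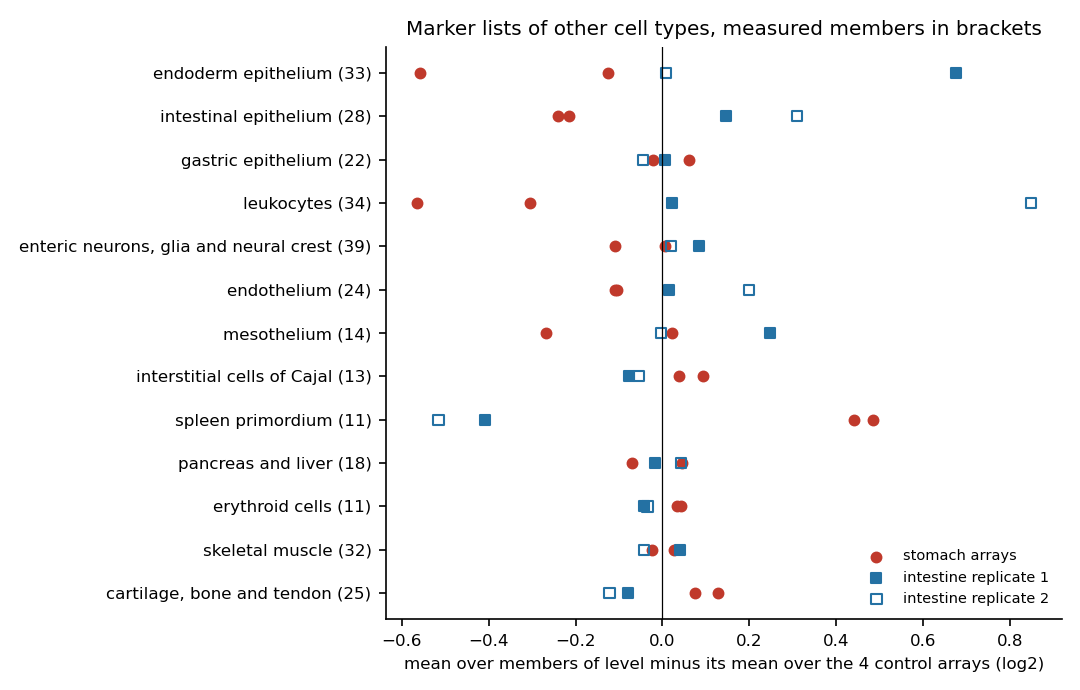
For 13 marker lists of other cell types, the mean over measured members of each gene's level minus its mean over the 4 control arrays (log2, horizontal axis). Red circles are the 2 stomach arrays, the filled blue square is intestine replicate 1 and the open square intestine replicate 2. The leukocyte list stands highest on intestine replicate 2 and the endoderm epithelium list on intestine replicate 1, while the gastric epithelium list hardly varies.

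Of 295 measured markers of other cell types 25 were higher (8.47%) and 29 lower (9.83%), near the shares over all genes. Mean levels of some lists differed between the 2 intestine arrays. The 33 endoderm epithelium markers averaged 6.17 and 6.60 in stomach against 7.40 and 6.73 in intestine, with 1 member higher and 2 lower. The keratin gene Krt8 read 10.12 and 11.27 in stomach against 13.25 and 12.01 in intestine and was not called (difference -1.93, SE 0.59, adjusted p = 0.0791). Without intestine replicate 2 the model called 11 of these markers lower. Of 34 leukocyte markers 1 was called lower, with a median of -0.93, and without intestine replicate 1 the model called 7 lower. Pf4, a gene of megakaryocytes and tissue macrophages, read 10.91 and 10.66 in stomach against 11.52 and 12.28 in intestine (adjusted p = 0.163). The intestinal epithelium markers were lower in 7 of 28 cases and higher in 0, at mean levels of 4.94, 4.91, 5.30 and 5.46 that lie close to the lower quartile of the arrays. Apob, an apolipoprotein of enterocytes, was lower by -1.62 (5.12 and 4.93 against 6.55 and 6.73). The part of other cells in the differences above was not tested.

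Of 39 markers of enteric neurons, glia and neural crest 5 were higher and 7 lower, at mean levels of 6.55, 6.44, 6.63 and 6.57. The lower ones include Erbb3 and Ednrb, given above, the neuronal adhesion gene L1cam (-1.03) and the crest factor gene Sox10, which read 6.91 and 6.77 against 7.61 and 8.25. The neuronal growth cone gene Gap43 and the adhesion gene Ncam1 were higher (differences 0.69 and 0.87), and Tubb3, a neuronal tubulin, was not called (8.30 and 8.36 against 7.90 and 7.39, adjusted p = 0.174). Sox10 (difference -1.09) lost its call without stomach replicate 1 (adjusted p = 0.104) and 2 (0.131), Gap43 without those and intestine replicate 1 (0.0938, 0.0651 and 0.0602), Ncam1 without stomach replicate 2 (0.0553), and L1cam without stomach replicate 1 (0.0672) and 2 (0.0685). Other probe sets of Sox10 differed by -0.21 and 0.07, and another of L1cam by -0.05, and none of these was called. Other probe sets of Ncam1 were called higher (0.81 and 0.48) or were not called (from -0.12 to 0.59). Of 24 endothelial markers 1 was higher and 5 lower, among them Esam (-0.84). Pecam1 and Plvap were lower by -0.59 and -0.62 from stomach levels of 3.43 to 4.604, which may be background, and their calls were lost without stomach replicate 2 (adjusted p = 0.0712 and 0.0688) and, for Plvap, stomach replicate 1 (0.0832). Spleen primordium genes, from the tissue that lies against the stomach, were higher in 7 of 11 cases and lower in 0, and the 7 include Barx1, Nr2f2 and Wt1, which gut mesenchyme or mesothelium also expresses; the call of Wt1 was lost without any 1 of the 4 arrays (adjusted p from 0.0527 to 0.121). Tlx1, the gene that spleen formation requires, read 6.09 and 5.94 in stomach against 4.66 and 4.68 in intestine (difference at least 1.35, SE 0.07, adjusted p = 0.00124).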

How the data were processed

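RNA was measured on 6 Affymetrix arrays, and the authors deposited log2 expression values. The submitters' processing notes name RMA, with a version not given in the sources used here; the log2 scale was read from the values. This method brings arrays to a common distribution, so a shift shared by most genes would not be seen. Of 22690 probe sets 20380 named 1 gene in the platform annotation and were kept; 691 named several genes, 64 were controls and 1555 others named none. For the 4956 genes with several probe sets the brightest was used.

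The 3 group means were fitted with limma 3.58.1 in R 4.3.3 (lmFit, eBayes; 3 residual degrees of freedom, prior 2.58), the remaining group lending its spread, and every adjusted p is from this fit or the named reduced one. No dim gene was filtered out in this fit. SE is the moderated one.

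The members of the 73 lists and the naming rule were chosen with earlier results of these data known. The rule named Barx1, Nkx3-2, the 40 largest called differences in each direction and, per list, up to 8 called members in each direction and 3 others by level. Ccl12, Cdc20, Mcm2, Mcm3, Mcm4, Mcm5, Mcm6, Mcm7, Rfc4, Mmp12, Mmp1b, Mmp3, Mmp1a and the uncalled Hoxa and Hoxc genes outside it were added after their values were seen. Motifs were searched with Python 3.11.15 in RefSeq promoter windows of GRCm38.p6, on both strands.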

Additional observations from a re-analysis of the deposited data

How the results depend on the processing

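With 2 arrays a group, counts of calls depend on single arrays. Leaving out 1 array gave from 143 to 901 genes higher in stomach and from 138 to 791 lower, and from 64 to 115 higher and from 79 to 215 lower by 1 or more. At an adjusted p under 0.01, 279 genes were higher and 233 lower, 96 of the latter by 1 or more. No called difference of a named gene changed sign under the alternatives run, but 25 of the 73 list medians did when 1 array was left out, such as that of the immediate early genes (from -0.155 to 0.146). Centring each array on its median gave 1258 higher and 916 lower, that is 57.9% of calls higher against 52.3%. Stomach replicate 1 and intestine replicate 1 did not deviate together (correlation over genes -0.216), and the other 2 same-numbered pairs gave -0.0615 and 0.203. At 2 arrays a group, these values cannot show whether the replicate numbers pair the samples. Taking the replicate number as a block gave 796 genes higher and 712 lower, against 1098 and 1002 without it. With the numbers crossed, an alternative chosen after seeing the data, 895 were higher and 984 lower. Depth has no counterpart on an array; levels at or below 4.74 limit what can be said.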
